A study of Mus musculus with 64 samples.

Results

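The mitochondrial genome transcripts were taken as every gene in the count table whose mouse symbol begins with mt-. This rule gave 37 of 55335 genes: 13 mRNAs, 2 rRNAs and 22 tRNAs, the full gene set of the mouse mitochondrial genome, and it used no measured value. They were followed in 64 RNA-seq libraries of V6.5 mouse embryonic stem cells. The cells were wild-type (WT) or one of 12 degron lines, RPB1 to RPB12, in each of which the named subunit of RNA polymerase II (Pol II) was fused to a tag that lets auxin (indole-3-acetic acid, IAA) trigger its degradation through the plant F-box protein OsTir1. In the first set, WT and all 12 lines were left untreated or given 500 µM IAA for 12 h, with 2 libraries in each of the 26 groups. In the second set, RPB1, RPB3 and RPB6 were sampled at 0 h and after 1 h of IAA, with 2 libraries in each of the 6 groups. All groups, controls included, had doxycycline for 12 h to switch on OsTir1. Its dose is 2 µg/ml in the treatment protocol but 1 µg/ml in the series text. All groups grew with the GSK3 inhibitor CHIR99021 and the MEK inhibitor PD0325901. The labels say neither whether the WT cells carry OsTir1 nor whether replicates are separate cultures; a p-value here thus weighs a difference against the spread of these libraries alone, and that spread may be technical. A degron removes the protein and not its mRNA, so no transcript level in these libraries checks that a subunit was lost.

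Mitochondria keep a small circular genome whose mRNAs encode core subunits of the respiratory chain and of ATP synthase, and whose rRNAs and tRNAs serve the mitochondrial ribosome. It is transcribed by its own single-subunit polymerase, POLRMT, and not by Pol II, although POLRMT, its factor TFAM and nearly all other mitochondrial proteins are encoded in the nucleus and transcribed by Pol II. Each strand is read as a long precursor that is cut at the tRNAs, which lie between the mRNAs like punctuation, and most of the mRNAs then gain a short poly(A) tail. In the annotation used here (GENCODE M21, build mm10), 28 members lie on the plus strand of chromosome M and 9 on the minus strand: mt-Nd6, mt-Tq, mt-Ta, mt-Tn, mt-Tc, mt-Ty, mt-Ts1, mt-Te and mt-Tp. The sources used here do not name the strand setting of the counting, so reads of these 9 genes cannot be told apart from reads of the opposite strand.

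Levels are given in CPM, a gene's count scaled by the total count of its library, and thus as shares of the measured RNA. Spiked-in fly cells were part of the protocol, but the table held 0 fly genes, so amounts per cell were not measurable here, and a larger share of mitochondrial RNA cannot be told apart from a smaller amount of other RNA. Nor can fewer cells of a type be told apart from less RNA per cell. The 12 h libraries held 3399838 to 7164928 counts and the 1 h libraries 8598431 to 13281252. All 8 pluripotent cell markers had medians of at least 1 CPM in untreated and in treated libraries, with summed levels of 4549 to 6342 CPM and 3378 to 5602 CPM. Of 8 fibroblast markers, 1 reached that median in untreated libraries and 3 in treated ones, and they summed to 3.63 to 14.8 CPM and 3.60 to 31.5 CPM. Dcn and Postn were at 0 in every library of the 12 h set. One library stood apart most: in RPB3 with IAA, replicate 1 had 8.56 counts of mt-Nd2 per 100 counts of mt-Co1, against 30.1 in replicate 2. Results that rest on this RPB3 library are given with and without it. The untreated RPB7 replicates also differed: replicate 2 had 5509 counts of mt-Nd6 and 4176 of mt-Nd5, replicate 1 had 5059 and 8901. Per 100 counts of mt-Nd5, replicate 2 had 132 of mt-Nd6, the highest of the 26 untreated libraries (median 39.2).

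Some members share their sequence with other genes, which bears on how reads could be assigned. The reading frames of mt-Atp8 and mt-Atp6, subunits of ATP synthase, overlap by 43 bases (chrM:7927-7969, plus strand), shown because reads inside them fit both genes:
mt-Atp8 and mt-Atp6 shared bases: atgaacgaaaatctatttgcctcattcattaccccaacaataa
A nuclear copy of part of the mitochondrial genome lies on chromosome 1. There, 7 annotated genes matched 7 mitochondrial mRNAs at 99% identity or more, over bases 6390 to 11042 of the mitochondrial genome (chr1:24611535-24616188, minus strand). Of these, Gm10925, the copy of mt-Atp6, also holds the 43 bases that mt-Atp6 shares with mt-Atp8. The copy of mt-Co1, Gm29216, held the last 483 bases of that gene with 1 mismatch, A1066T, with positions counted from 1 at the 5′ end of mt-Co1. The copy of mt-Nd3, Gm28438, differed by T3C, counted likewise. Both pairs are shown with the differing base in capitals, since a read that misses this base fits either gene:
mt-Co1: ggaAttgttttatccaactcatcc
Gm29216: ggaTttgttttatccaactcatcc
mt-Nd3: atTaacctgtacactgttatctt
Gm28438: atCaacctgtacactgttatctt
These stretches are chrM:6390-6413 and chrM:9459-9481 (plus strand), and chr1:24616165-24616188 and chr1:24613097-24613119 (minus strand).

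5 tRNA genes whose values are described below are printed next: mt-Te (tRNA for glutamate, chrM:14071-14139, minus strand), mt-Tl1 (leucine, chrM:2676-2750) directly after the large rRNA, and the run of mt-Th (histidine, chrM:11546-11612), mt-Ts2 (serine, chrM:11613-11671) and mt-Tl2 (leucine, chrM:11671-11741) between mt-Nd4 and mt-Nd5, all on the plus strand. The capital letter marks the base that mt-Ts2 and mt-Tl2 have in common:
mt-Te: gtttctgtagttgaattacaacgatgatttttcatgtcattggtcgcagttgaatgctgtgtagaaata
mt-Tl1: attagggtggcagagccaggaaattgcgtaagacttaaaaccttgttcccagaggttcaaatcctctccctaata
mt-Th: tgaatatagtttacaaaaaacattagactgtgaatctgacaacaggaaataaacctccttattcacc
mt-Ts2: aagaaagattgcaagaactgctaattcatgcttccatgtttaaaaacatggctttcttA
mt-Tl2: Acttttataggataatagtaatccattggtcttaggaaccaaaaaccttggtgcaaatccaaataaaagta
A count for a tRNA gene is a read assigned to its bases. The 12 h libraries were made from poly(A) RNA, and whether such reads came from mature tRNAs or from longer RNA that spans them was not tested.

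In the poly(A) libraries of untreated cells the transcripts spanned more than 3 orders of magnitude once counts were divided by gene length. mt-Co1, the catalytic subunit of cytochrome c oxidase (complex IV), was highest, with a median of 2529 CPM per kb over the 26 untreated libraries (range 1816 to 3101). It was followed by mt-Nd1 of complex I with 2000 CPM per kb (1097 to 2628) and by mt-Cytb, cytochrome b of complex III, with 1961 CPM per kb (1240 to 2713). mt-Co1 lay above mt-Nd1 in 25 of the 26 libraries, and mt-Nd1 above mt-Cytb in 19. Next came mt-Nd6, mt-Nd2, mt-Nd5 and mt-Nd4, all of complex I, with medians of 1275, 1262, 879 and 698 CPM per kb. mt-Nd6 lay above mt-Nd2 in 13 of 26 libraries, so these neighbours had no order, whereas mt-Nd2 lay above mt-Nd5 in all 26. The rRNAs of the small and large ribosomal subunit, mt-Rnr1 and mt-Rnr2, had 130 and 136 CPM per kb, with mt-Rnr2 above mt-Rnr1 in 12 of 26 libraries. Whether poly(A) libraries capture rRNAs and mRNAs alike was not tested. The order of these classes thus holds for the reads and may not hold for amounts in the cells. The mRNAs with a copy on chromosome 1, other than mt-Co1 and mt-Nd4, sat far lower: medians were 20.3 for mt-Co2, 19.2 for mt-Atp6, 11.5 for mt-Co3, 4.85 for mt-Nd3 and 4.03 CPM per kb for mt-Nd4l. mt-Atp8 was lower still, with 0.846 CPM per kb. It lies within the stretch that the copies span, with 43 of its 204 bases in Gm10925. Its other bases were not compared with sequence between the annotated copies. mt-Co2, mt-Atp6, mt-Co3, mt-Nd3 and mt-Nd4l have hardly any unshared bases, unlike mt-Co1, whose level per unshared kb was 3680, so their low counts cannot be told apart from loss of reads that fit more than 1 place. The plot of levels shows this gap.

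**Figure D1:**
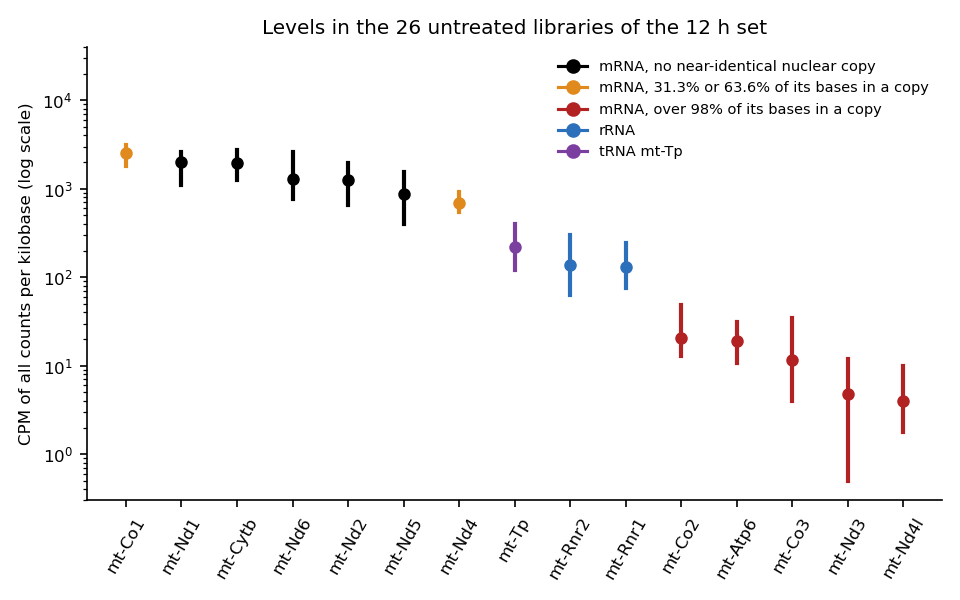
Level of 15 mitochondrial transcripts in poly(A) libraries of untreated cells, in CPM per kb of gene on a log axis. Points are at the median and lines over the range of the 26 untreated libraries of the 12 h set. The 7 highest mRNAs had medians from 698 to 2529, the rRNAs 130 and 136, and mt-Co2, mt-Atp6, mt-Co3, mt-Nd3 and mt-Nd4l, which have a copy on chromosome 1, from 4.03 to 20.3.

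Counts were enough to test 29 members in the 12 h set: 12 mRNAs (all but mt-Atp8, with 53 counts over the 52 libraries), both rRNAs and 15 tRNAs. The 7 tRNAs left out had 0 (mt-Td), 1 (mt-Tg), 2 (mt-Tf), 3 (mt-Tk), 11 (mt-Tr), 20 (mt-Tv) and 41 counts (mt-Tm) over the set, and for mt-Td the count of 0 allows up to 0.0110 CPM. In the 1 h set, 21 members could be tested: 12 mRNAs, both rRNAs and 7 tRNAs.

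After 12 h of IAA the mitochondrial mRNAs took a larger share of all counts in 3 lines above all, RPB2, RPB6 and RPB8. Summed over the 13 mRNAs, the share in RPB2 was 1.24% and 1.37% in the untreated replicates and 3.44% and 3.25% with IAA. In RPB8 it was 1.35% and 1.58% before and 3.61% and 3.80% after, and in RPB6 it was 1.10% and 1.04% before and 2.73% and 2.66% after. In each of these lines both treated libraries lay above every untreated library of the whole 12 h set, which ranged from 0.871% to 1.69%. The log2 ratios of the group means were 1.36, 1.34 and 1.34 in RPB2, RPB8 and RPB6. RPB1, the catalytic subunit's line, followed with 1.27% and 1.29% against 2.30% and 2.04% (log2 ratio 0.76), also without overlap with any untreated library. RPB5 had 1.69% and 1.27% untreated and 2.19% and 2.27% with IAA (0.60), and RPB7, the line with the lowest untreated shares, 0.947% and 0.871% against 1.25% and 1.32% (0.50). In WT the treated libraries, at 1.42% and 1.46%, were above the untreated ones, at 1.30% and 1.37%, by 0.11 on the log2 scale. Log2 ratios were 0.35 in RPB10, 0.23 in RPB9, -0.03 in RPB12, -0.05 in RPB11 and -0.11 in RPB4. RPB3 had 1.27% and 1.30% untreated, but 0.534% in the treated library that stood apart and 1.72% in the other, so its treated libraries fell on both sides of the untreated ones. Counting error is small beside these gaps: the widest 95% Wilson interval of a share reached 0.0203 points to either side, for counting error only. With 2 libraries a group, no permutation test of a single share can pass the threshold, and none was made.

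**Figure D2:**
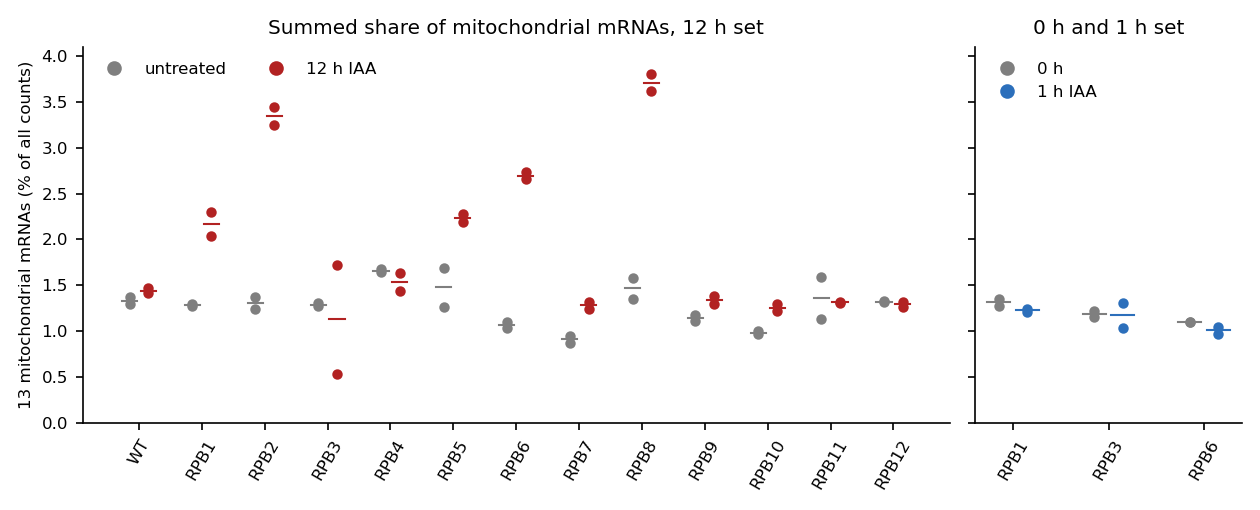
Share of all counts (%) taken by the 13 mitochondrial mRNAs, 1 point per library, by line and treatment, for the 12 h set on the left and the 0 h and 1 h samples on the right. Treated RPB2, RPB6 and RPB8 libraries lie between 2.66% and 3.80%, above all untreated libraries (0.871% to 1.69%), while the 2 treated RPB3 libraries lie at 0.534% and 1.72%.

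Gene by gene, 12 of the 12 tested mRNAs rose in RPB2 and in RPB6, 11 in RPB8, 8 in RPB1, 6 in RPB5, 3 in RPB7 and 2 in RPB10, by edgeR's quasi-likelihood test with Benjamini-Hochberg adjustment over all 17928 genes tested. The share of all tested genes called higher in the same comparison was 13.9% in RPB2, 14.9% in RPB6, 27.3% in RPB8, 42.7% in RPB1, 34.3% in RPB5, 24.4% in RPB7 and 22.6% in RPB10, so the count in RPB7 was near its background and that in RPB10 below it. The median log2 fold change of the 12 mRNAs was 1.60 in RPB2, 1.65 in RPB6, 1.57 in RPB8, 0.83 in RPB1, 0.64 in RPB5, 0.51 in RPB7 and 0.43 in RPB10. No mRNA was called lower in these 7 lines. In 5 of them, 6 of the 8 pluripotent cell markers were called lower. The median log2 fold change over the 8 was -1.01 in RPB1, -2.61 in RPB2, -0.77 in RPB5, -2.02 in RPB6 and -1.32 in RPB8. Of all tested genes, 24.3%, 51.7%, 25.1%, 48.1% and 34.7% were called lower there. Other markers were called higher: 1 in RPB1 and 2 each in RPB2, RPB5, RPB6 and RPB8. Over the 12 degron lines Pou5f1 was called higher in 5 and lower in 0, and Dppa5a higher in 4 and lower in 0. In RPB1 2 of the 3 tested fibroblast markers were called higher (median 3.79). The part of these markers in the results was not tested. Over all tested genes the median change was -1.03 in RPB2, -0.75 in RPB6, -0.11 in RPB8, 0.28 in RPB1 and 0.16 in RPB5. With TMM scaling, which centres most genes near no change, those medians became -0.19, -0.13, 0.04, 0.09 and 0.08, and the medians of the mRNAs 2.46, 2.27, 1.73, 0.64 and 0.55. Calls then fell to 3 in RPB5 and 1 in RPB7, and were 12, 12, 11, 6 and 2 in RPB2, RPB6, RPB8, RPB1 and RPB10. Leaving out 1 library gave 10 to 12 calls in RPB2 and RPB6 and 10 to 11 in RPB8. It gave 5 in RPB1 without IAA replicate 1, 1 and 2 in RPB5 without untreated replicate 2 and IAA replicate 2, 1 in RPB7 without untreated replicate 2 or either IAA replicate, and 0 in RPB10 without either untreated replicate or IAA replicate 1.

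**Figure D3:**
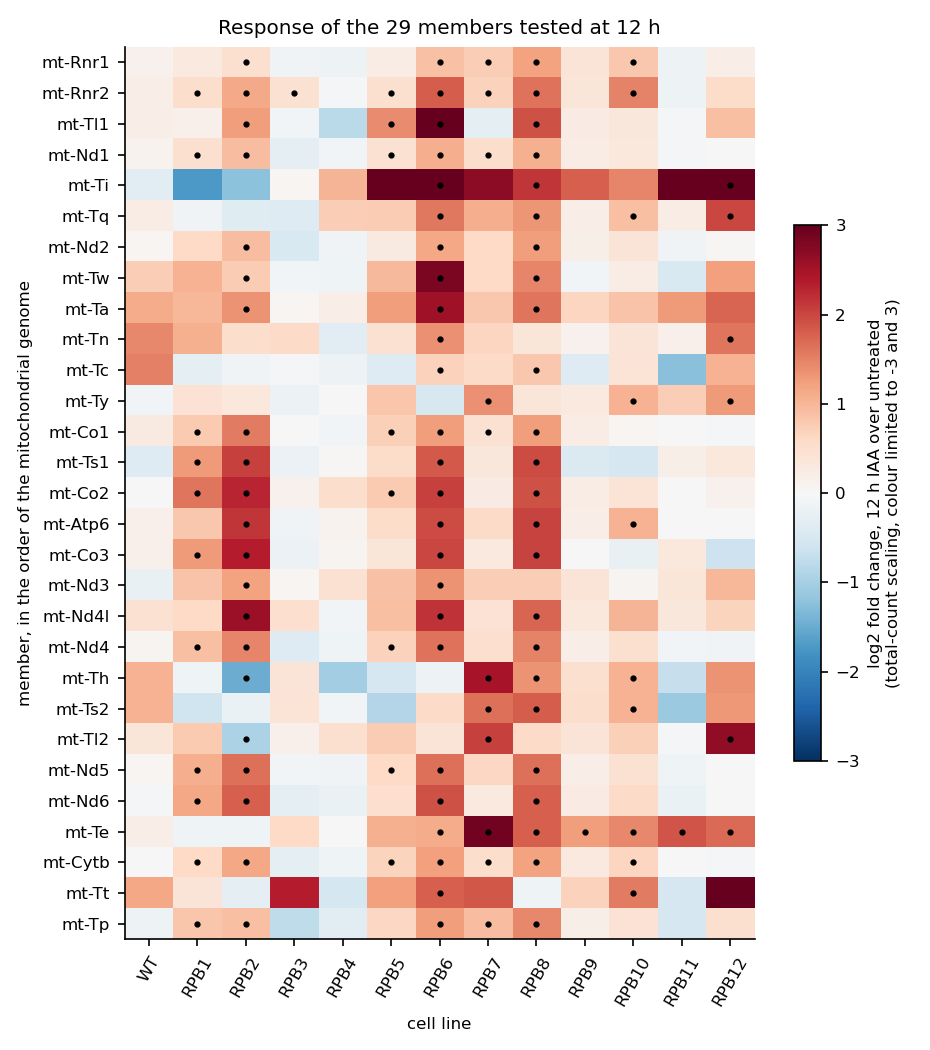
Log2 fold change, IAA 12 h against untreated, of the 29 tested members (rows) in WT and the 12 degron lines (columns), with colour limited to ±3 and a black dot where edgeR's adjusted p passed 0.05. Dots fill 12, 12 and 11 of the 12 mRNA rows in RPB2, RPB6 and RPB8, and 0 in WT; the fitted values of mt-Ti in RPB12 and RPB6 rest on untreated groups with 0 and 2 counts.

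The subunits of complex IV held the most abundant mRNA, mt-Co1, and, in mt-Co2 and mt-Co3, some of the largest changes. All but 3 bases of mt-Co2 and 1 base of mt-Co3 lie in the copies on chromosome 1. Counts of mt-Co2 and mt-Co3 thus cannot be told apart from reads of those copies. mt-Co1 read 3644 and 3449 CPM in untreated RPB2 and 10438 and 10350 CPM with IAA, a log2 fold change of 1.55 ± 0.14 (SE, n = 2 a group, edgeR adjusted p = 2.3e-13). The treated values were high in both replicates and far from the untreated ones. mt-Co1 rose likewise in RPB6, from 3447 and 3337 to 8197 and 8014 CPM (1.26 ± 0.14, edgeR adjusted p = 1.1e-10), and in RPB8, from 4320 and 4730 to 10376 and 11170 CPM (1.25 ± 0.14, edgeR adjusted p = 1.7e-10). In RPB1 it went from 3966 and 3903 to 7171 and 6481 CPM (0.79 ± 0.14, edgeR adjusted p = 3.7e-06), and in RPB5 from 4792 and 4011 to 7001 and 7481 CPM (0.72 ± 0.14, edgeR adjusted p = 2.4e-05). The groups did not overlap in any of these lines, and the calls held with each library left out. WT had 3732 and 3944 CPM untreated and 4639 and 4653 CPM with IAA, higher in both treated replicates but not past the threshold (0.28 ± 0.14, edgeR adjusted p = 0.41). mt-Co2, the copper-binding subunit that takes electrons from cytochrome c, had 16.2 and 18.9 CPM in untreated RPB2 and 105 and 66.3 CPM with IAA (2.28 ± 0.25, edgeR adjusted p = 5.1e-11). In WT it stayed between 13.7 and 15.1 CPM in all 4 libraries. mt-Co3, the remaining core subunit, had no more than 9.09 CPM in untreated RPB2 and 48.1 and 39.7 CPM with IAA (2.37 ± 0.31, edgeR adjusted p = 3.6e-09).

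Complex I, the NADH dehydrogenase, takes more of its subunits from the mitochondrial genome than any other complex. mt-Nd5, which forms part of its proton-pumping arm, had 1801 and 2238 CPM in untreated RPB8 and 6234 and 6434 CPM with IAA (1.65 ± 0.27). In RPB6 it had 1358 and 1240 CPM before and 4254 and 3931 CPM after (1.66 ± 0.27), and in RPB2 1598 and 1629 CPM before and 5378 and 4785 CPM after (1.66 ± 0.27). Each of these treated libraries was above all untreated ones of its line, and RPB1 was alike, with 1515 and 1545 CPM against 3451 and 3029 CPM (1.08 ± 0.26, edgeR adjusted p = 0.00041). mt-Nd6, the only mRNA on the minus strand, rose by 1.80 ± 0.28 in RPB2, 1.90 ± 0.28 in RPB6, 1.80 ± 0.28 in RPB8 and 1.15 ± 0.28 in RPB1. mt-Nd4, another pump subunit, had 787 and 769 CPM in untreated RPB6 and 2385 and 2450 CPM with IAA (1.64 ± 0.29). mt-Nd1 and mt-Nd2 had smaller fold changes in RPB2 than these: mt-Nd1 had 2080 and 2353 CPM before and 4321 and 4131 CPM after (0.93 ± 0.19), and mt-Nd2 1211 and 1641 CPM before and 2819 and 2627 CPM after (0.93 ± 0.31, edgeR adjusted p = 0.0083). The difference between these members and mt-Nd5 was not tested directly, and against the summed mRNAs none of the 3 was called. The mt-Nd2 call in RPB2 was lost without untreated replicate 1, at 0.73. mt-Nd4l and mt-Nd3 had few counts: in RPB2 mt-Nd4l had 1.93 and 0.572 CPM before and 8.23 and 5.77 CPM after (2.57 ± 0.53, edgeR adjusted p = 4e-05). mt-Nd3 had 0.967 and 2.71 CPM before and 4.37 and 4.77 CPM after in RPB2 (1.21 ± 0.50, edgeR adjusted p = 0.032), a call lost without untreated replicate 1 (0.75), IAA replicate 1 (1.27) or IAA replicate 2 (1.15). It was the 1 tested mRNA that did not pass in RPB8 (0.73).

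mt-Cytb, the sole mitochondrially encoded subunit of complex III, rose in every line in which at least 2 mRNAs rose. It had 2330 and 2723 CPM in untreated RPB2 and 5821 and 5465 CPM with IAA (1.16 ± 0.22, edgeR adjusted p = 7.2e-06), and 1989 and 1918 CPM against 4665 and 4500 CPM in RPB6 (1.23 ± 0.22, edgeR adjusted p = 2.9e-06). In RPB10 it had 1456 and 1418 CPM before and 2318 and 2210 CPM after (0.66 ± 0.22, edgeR adjusted p = 0.013), without overlap, while mt-Co1 in the same libraries read 3423 and 3275 CPM before and 3615 and 3416 CPM after (0.07 ± 0.14). The mt-Cytb call in RPB10 was lost without either untreated replicate (0.67 and 0.64) or IAA replicate 1 (0.62). In WT mt-Cytb read 2252 and 2166 CPM untreated and 2198 and 2165 CPM with IAA. mt-Atp6, which forms part of the proton channel of ATP synthase, had 12.4 and 14.7 CPM in untreated RPB2 and 65.8 and 54.5 CPM with IAA (2.14 ± 0.36, edgeR adjusted p = 1.3e-06). It was the other mRNA called higher in RPB10, from 13.3 and 13.6 to 38.1 and 18.0 CPM (1.05 ± 0.39, edgeR adjusted p = 0.028), and there it rested on IAA replicate 1, without which the value was 0.42; the call was also lost without either untreated replicate (1.03 and 1.07).

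In WT, RPB3, RPB4, RPB9, RPB11 and RPB12, edgeR called 0 of the 12 mRNAs in either direction, with 0 at an unadjusted p under 0.05. DESeq2's test, here and below run with total-count scaling, called 0 as well. The share of all tested genes called higher was 0.959% in WT, 32.7% in RPB3, 1.21% in RPB4, 21.3% in RPB9, 15.5% in RPB11 and 2.23% in RPB12, and 0.72% were called lower in WT. Median log2 fold changes of the 12 mRNAs were 0.07 in WT, -0.09 in RPB4, 0.23 in RPB9, -0.01 in RPB11 and 0.01 in RPB12. In RPB3 the result depended on a single library. mt-Nd5 had 1608 and 1700 CPM untreated, 601 CPM in IAA replicate 1 and 2511 CPM in IAA replicate 2; mt-Nd2 had 1304 and 1300 CPM untreated, then 220 and 1664 CPM. Without IAA replicate 1, 5 mRNAs were called higher, among them mt-Nd5 at 0.60 and mt-Co1 at 0.44, and without IAA replicate 2, 8 were called lower. With TMM scaling 1 mRNA was called lower in RPB3. Without the filter on low counts, 1 mRNA was called higher in WT and 6 in RPB9, and 5 were called lower in RPB3.

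The response in each line was then set against that of WT in 1 fit; these 12 comparisons share the WT libraries. Beyond WT, 9 mRNAs were called higher in RPB2, 10 in RPB6, 10 in RPB8 and 4 in RPB1, where 11.1%, 12.2%, 19.6% and 28.9% of all tested genes were called higher. For mt-Co1 the log2 difference from WT was 1.28 ± 0.20 in RPB2 (edgeR adjusted p = 2.8e-07), 0.98 in RPB6 and 0.52 ± 0.20 in RPB1 (edgeR adjusted p = 0.027). The RPB1 count was the least stable of these 4: it was 2 without WT untreated replicate 2, WT IAA replicate 1 or RPB1 untreated replicate 1, and 1 without RPB1 IAA replicate 1, where mt-Co2 was the call that held under every library left out. The other calls in RPB1 were mt-Co1, mt-Nd5 and mt-Nd6. In RPB5 the mRNA calls did not extend to the difference from WT (0 of 12, 2 at an unadjusted p under 0.05, 0 by DESeq2), though 3 appeared without its untreated replicate 1. In RPB10 they did not either (0 of 12, 1 at an unadjusted p under 0.05, 0 by DESeq2), nor in RPB3, RPB4, RPB7, RPB9, RPB11 and RPB12 (0 of 12, 0 at an unadjusted p under 0.05, 0 by DESeq2). These counts of 0 depended on the filter on low counts: without it, 7 mRNAs were called higher than in WT in RPB5, 6 in RPB7, 1 in RPB9 and 6 in RPB10, and 4 were called lower in RPB3 and 1 in RPB4. For RPB3 the count was 1 higher without IAA replicate 1 and 8 lower without IAA replicate 2.

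The 0 h and 1 h set held no WT libraries, so a response to IAA itself cannot be told apart there from one to loss of the subunit. After 1 h of IAA the summed mRNA share had moved little. It was 1.35% and 1.28% at 0 h and 1.21% and 1.25% at 1 h in RPB1, 1.22% and 1.15% against 1.30% and 1.04% in RPB3, and 1.10% and 1.10% against 0.967% and 1.05% in RPB6. In RPB1, 5 of the 21 tested members were called lower and none higher, where 15.5% of all 15658 tested genes were called lower and 9.36% higher. mt-Nd2 had 1694 and 1444 CPM at 0 h and 1237 and 1189 CPM at 1 h (-0.37 ± 0.09, edgeR adjusted p = 0.0061), and mt-Nd6 had 484 and 435 CPM against 325 and 359 CPM (-0.43 ± 0.12, edgeR adjusted p = 0.018). mt-Nd5 had 1993 and 1858 CPM at 0 h and 1577 and 1617 CPM at 1 h (-0.27 ± 0.09, edgeR adjusted p = 0.033). Both rRNAs fell as well: mt-Rnr1 from 109 and 116 to 91.0 and 81.7 CPM (-0.38 ± 0.10, edgeR adjusted p = 0.01) and mt-Rnr2 from 147 and 140 to 114 and 86.1 CPM (-0.52 ± 0.14, edgeR adjusted p = 0.014). The groups did not overlap for these 5 genes, while mt-Co1, with 4356 and 4204 CPM against 4081 and 4336 CPM, did overlap (-0.02 ± 0.09). At 12 h in the same line, in separate libraries that were fitted apart, mt-Nd5, mt-Nd6 and mt-Rnr2 were called higher, while mt-Nd2 (0.60) and mt-Rnr1 (0.28) were not called. The mRNA calls were few and frail: 0 were left without 0 h replicate 1 or 1 h replicate 2, and 1 without 1 h replicate 1. The mt-Rnr1 call was lost without 0 h replicate 2 (-0.33) or 1 h replicate 2 (-0.31), and the mt-Rnr2 call without 0 h replicate 1 (-0.48) or 1 h replicate 2 (-0.34). In RPB3 and RPB6 edgeR called 0 of the 21 members. Of the mRNAs, 3 in RPB3 and 4 in RPB6 had an unadjusted p under 0.05, as had 2 and 1 of the other members, and DESeq2 called 0 in RPB3 and 1 lower in RPB6. Of all tested genes, 0.0128% were called higher and 0.326% lower in RPB3, and 0.9% higher and 0.651% lower in RPB6. Without 1 h replicate 1, 3 mRNAs were called higher in RPB3.

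The copies on chromosome 1 gave counts of their own, and most of them were called higher in RPB1, RPB2, RPB6 and RPB8. Summed over the 7 copies, untreated libraries held 67.3 to 197 CPM, more than the 22.2 to 63.4 CPM of the 5 mRNAs mt-Co2, mt-Atp6, mt-Co3, mt-Nd3 and mt-Nd4l that they hold in full or nearly so. Gm28661, identical to mt-Co2 over 681 bases, had 45.6 and 58.2 CPM in untreated RPB2 and 225 and 201 CPM with IAA (2.02 ± 0.25, edgeR adjusted p = 9.2e-10), beside 2.28 for mt-Co2 itself. In WT Gm28661 had 42.1 and 52.7 CPM before and 32.4 and 39.6 CPM after. Gm29216, the partial copy of mt-Co1 printed above, had 7.35 and 8.14 CPM in untreated RPB2 and 39.3 and 40.2 CPM with IAA (2.35 ± 0.29, edgeR adjusted p = 1.3e-09). Of the 7 copies, 7 were called higher in RPB6, 6 in RPB8, 5 in RPB1, 5 in RPB2, 3 in RPB7, 2 in RPB10 and 2 in RPB12. Of all tested genes, 14.9%, 27.3%, 42.7%, 13.9%, 24.4%, 22.6% and 2.23% were called higher in these lines. In the other lines 0 copies were called. Among those was RPB5 (median 0.16), where mt-Co1, mt-Co2 and mt-Nd4 were called higher. Gm28438, the copy of mt-Nd3, was at -0.17 in RPB2 and rose by 2.45 ± 0.46 in RPB12, whereas mt-Nd3 itself was called higher in RPB2 and not in RPB12. The sources used here do not say how reads that fit several places were handled, so counts of these copies cannot be told apart from reads of the mitochondrial genes.

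In RPB2, RPB6, RPB8 and RPB1 the mRNAs that share their sequence with chromosome 1 showed larger log2 ratios than 4 mRNAs that do not. Summed over the 5 shared mRNAs, the log2 ratio of IAA to untreated was 2.24 in RPB2, 1.99 in RPB6, 1.93 in RPB8 and 1.20 in RPB1. Over mt-Nd1, mt-Nd2, mt-Nd5 and mt-Cytb, which have no near-identical annotated copy and lie on the plus strand, it was 1.18, 1.28, 1.31 and 0.68. In RPB7 (0.35 for the shared set and 0.56 for the other), RPB9 (0.18 and 0.24) and RPB10 (0.45 and 0.47) the shared set did not have the larger ratio. In WT, RPB3, RPB4, RPB5, RPB11 and RPB12 it did, so the larger ratio was not particular to the 4 lines named first. mt-Nd6, on the minus strand, has no near-identical annotated copy either and is outside the set of 4. Its fitted changes in those 4 lines, given above, lay nearer to the ratios of the shared set. The difference between the sets was not tested. The calls in RPB2, RPB6, RPB8 and RPB1 included members of both sets, so the rise was seen in mRNAs with and without such a copy. The copies also span 5 tRNA genes (mt-Ts1, mt-Td, mt-Tk, mt-Tg and mt-Tr), 4 of which are among the 7 tRNAs with too few counts to test.

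**Figure D4:**
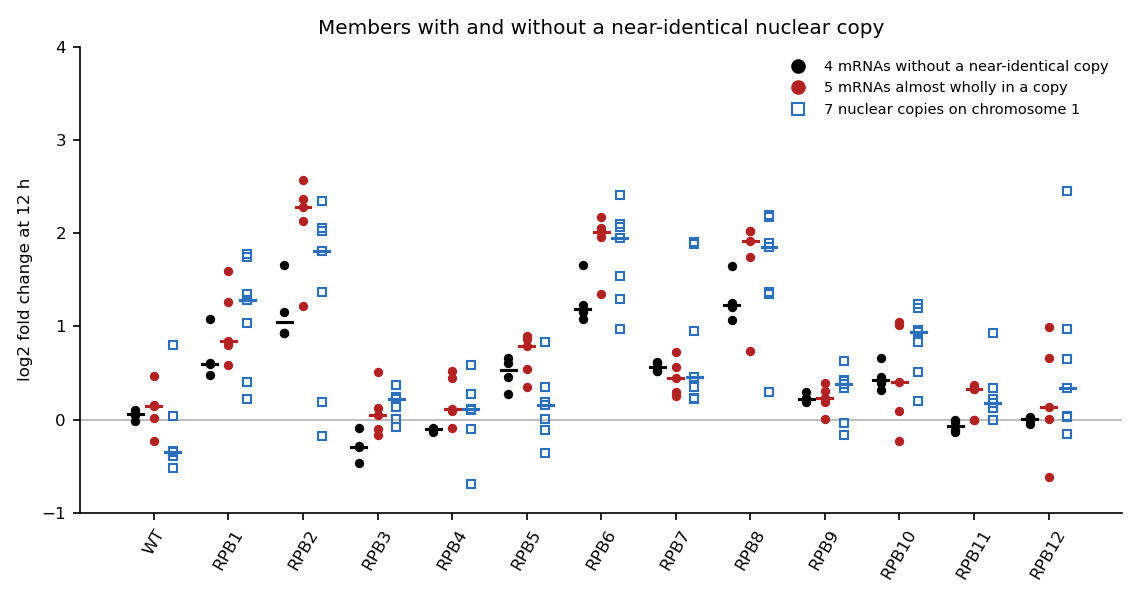
Log2 fold change (IAA 12 h against untreated) in WT and each degron line for 4 mRNAs without an annotated near-identical copy (mt-Nd1, mt-Nd2, mt-Nd5 and mt-Cytb), 5 mRNAs that share their sequence with chromosome 1, and the 7 copies there, with bars at each set's median. All 3 sets lie above 0 on the median in RPB1, RPB2, RPB6 and RPB8; the medians of the copies were 1.29, 1.80, 1.95 and 1.85 in these lines.

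mt-Rnr2 was called higher in 8 lines and mt-Rnr1 in 5 of them (RPB2, RPB6, RPB7, RPB8 and RPB10). These are reads of poly(A) libraries, and whether they follow the total amount of each rRNA was not tested. mt-Rnr2, the RNA of the large subunit, rose in RPB2, RPB6, RPB7, RPB8 and RPB10, and past the threshold also in RPB1, RPB3 and RPB5. In RPB10 it had 117 and 124 CPM untreated and 343 and 334 CPM with IAA (1.49 ± 0.18, edgeR adjusted p = 6.2e-09). mt-Rnr1, the RNA of the small subunit, had 199 and 199 CPM there and 350 and 345 CPM with IAA (0.80 ± 0.15, edgeR adjusted p = 2.8e-05). Both treated libraries lay well above both untreated ones. In RPB6 mt-Rnr2 had 259 and 232 CPM before and 911 and 815 CPM after (1.81 ± 0.18, edgeR adjusted p = 1.7e-12), against 124 and 114 CPM and then 212 and 227 CPM for mt-Rnr1 (0.89 ± 0.16, edgeR adjusted p = 3.7e-06). RPB8 had the highest level of mt-Rnr2, at 1000 and 878 CPM with IAA against 269 and 336 CPM without (1.64 ± 0.18), and mt-Rnr1 went from 161 and 197 to 436 and 392 CPM (1.21 ± 0.15). In RPB7 mt-Rnr1 went from 79.0 and 100 to 155 and 142 CPM (0.73 ± 0.16, edgeR adjusted p = 0.00024) and mt-Rnr2 from 109 and 111 to 174 and 177 CPM (0.68 ± 0.19, edgeR adjusted p = 0.0026). These groups did not overlap, and the calls of both rRNAs in RPB6, RPB7, RPB8 and RPB10 held with each library left out. In RPB2 mt-Rnr2 went from 351 and 373 to 844 and 750 CPM (1.14 ± 0.17), and mt-Rnr1 from 173 and 234 to 289 and 281 CPM (0.48 ± 0.15, edgeR adjusted p = 0.0054), the latter lost without untreated replicate 1 at 0.28. In WT mt-Rnr1 had 124 and 126 CPM before and 137 and 138 CPM after, and mt-Rnr2 108 and 115 CPM before and 119 and 137 CPM after, higher in both treated libraries and past no threshold.

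The smaller mt-Rnr2 changes were less stable. In RPB1 mt-Rnr2 rose by 0.53 ± 0.19 (edgeR adjusted p = 0.014), but was not called with TMM scaling (0.34), without untreated replicate 1 (0.40) or without IAA replicate 1 (0.39). In RPB3 mt-Rnr2 rose by 0.46 ± 0.18 (edgeR adjusted p = 0.028), but was not called with TMM scaling (0.28), nor without untreated replicate 1 (0.50), untreated replicate 2 (0.43) or IAA replicate 2 (0.21). In RPB5 mt-Rnr2 rose by 0.47 ± 0.18 (edgeR adjusted p = 0.022), but was not called with TMM scaling (0.39), nor without untreated replicate 2 (0.08), IAA replicate 1 (0.46) or IAA replicate 2 (0.49). edgeR called 0 of the 2 rRNAs in WT, RPB4, RPB9, RPB11 and RPB12, with 0, 0, 2, 0 and 1 at an unadjusted p under 0.05 and 0 by DESeq2. Against WT the rRNA responses stayed larger in RPB10 (mt-Rnr1 by 0.66, edgeR adjusted p = 0.022, and mt-Rnr2 by 1.29, edgeR adjusted p = 0.00023), where 13% of all tested genes were called higher than in WT. They were also larger in RPB6 (0.75 and 1.61) and RPB8 (1.07 and 1.44), and for mt-Rnr2 in RPB2 (0.94). The mt-Rnr1 difference in RPB10 was lost without any of 6 libraries (WT untreated replicate 2, either WT IAA replicate, either RPB10 untreated replicate, RPB10 IAA replicate 1), at values of 0.65 to 0.67. The balance of the rRNAs also differed between untreated lines: there were 115 and 110 counts of mt-Rnr1 per 100 of mt-Rnr2 in WT, 170 and 161 in RPB10, and a lowest value of 36.9 in RPB4. In RPB10 this ratio was 102 and 103 with IAA, below both untreated libraries, and in RPB6 it went from 47.7 and 49.0 to 23.3 and 27.8.

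**Figure D5:**
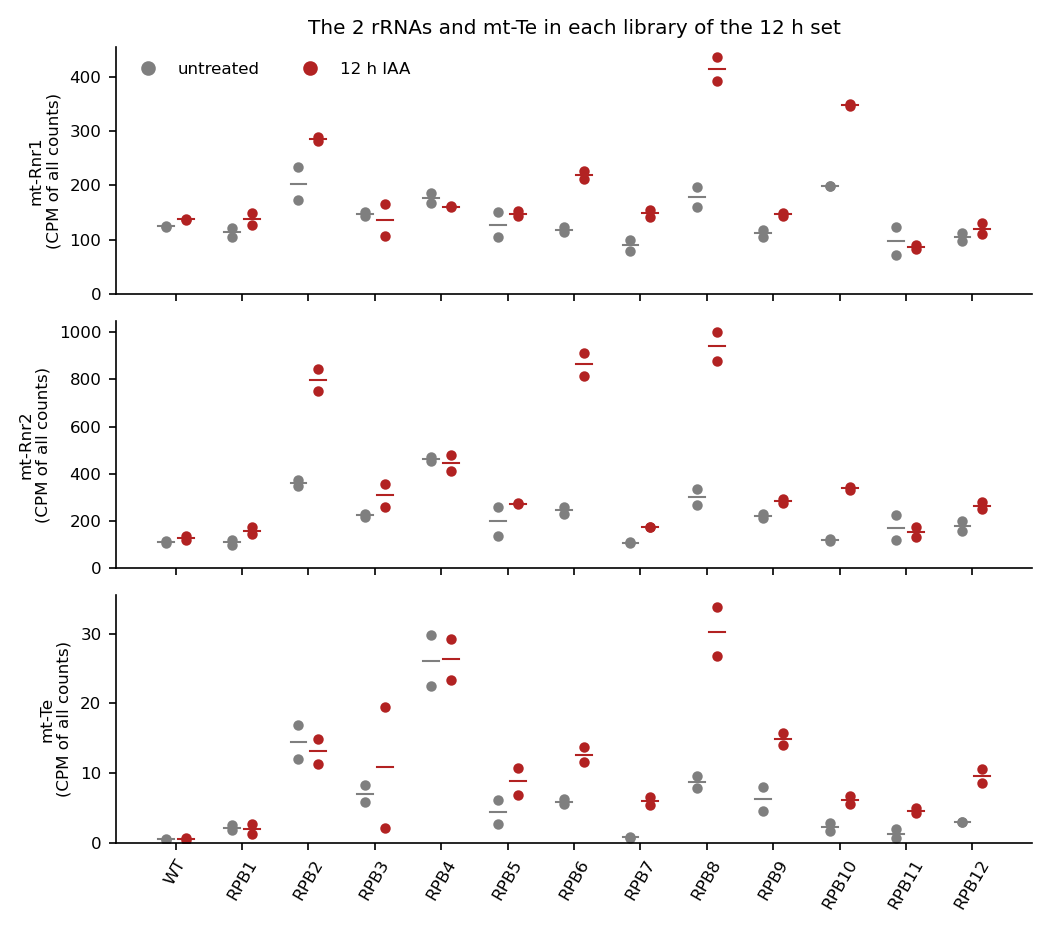
CPM of mt-Rnr1, mt-Rnr2 and mt-Te in each library of the 12 h set by line and treatment, with bars at the group means. Treated RPB10 libraries read 343 and 334 CPM of mt-Rnr2 against 117 and 124 untreated, and untreated mt-Te spans from below 1 CPM in WT to 22.5 and 29.8 CPM in RPB4.

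Of the 15 tested tRNA genes, 11 were called higher in RPB6 and in RPB8, 6 in RPB7, in RPB10 and in RPB12, and 5 in RPB2. Of all tested genes, 14.9%, 27.3%, 24.4%, 22.6%, 2.23% and 13.9% were called higher in these lines, in the same order. In RPB1 2 tRNA genes were called higher, and 1 each in RPB5, RPB9 and RPB11. These counts were below the shares of all genes there (42.7%, 34.3%, 21.3% and 15.5%). 2 tRNA genes were called lower, both in RPB2. This was below the share there too, since 51.7% of all tested genes were called lower. With TMM scaling the RPB2 counts became 8 higher and 0 lower, and there were 13 higher in RPB6. mt-Tl1, the leucine tRNA gene that directly follows mt-Rnr2, had 2.75 and 1.90 CPM in untreated RPB6 and 19.4 and 17.3 CPM with IAA (2.98 ± 0.33, edgeR adjusted p = 6.5e-11). It also rose in RPB2 (10.1 and 8.72 CPM to 23.1 and 21.1 CPM, 1.24 ± 0.25), RPB8 (2.84 and 3.89 CPM to 12.3 and 13.2 CPM, 1.92 ± 0.34) and RPB5 (2.74 and 2.14 CPM to 7.24 and 5.62 CPM, 1.41 ± 0.40), and in WT the 4 libraries ranged from 0.229 to 1.32 CPM. Treated and untreated mt-Tl1 libraries did not overlap in these 4 lines, and all 4 calls held with each library left out. mt-Tp, the proline tRNA gene, had the most counts of the tRNAs per length and rose in RPB2, RPB6, RPB7, RPB8 and RPB1. In RPB8 it went from 16.1 and 18.3 to 50.3 and 43.5 CPM (1.45 ± 0.28). The mt-Tp call was lost in RPB1 without untreated replicate 2 (0.64) or IAA replicate 2 (0.44), and in RPB7 without untreated replicate 1 (0.73) or IAA replicate 1 (0.78). mt-Tt, the threonine tRNA gene, was called higher in RPB10 and RPB6. In RPB10 it had 2.91 and 3.25 CPM untreated and 7.55 and 10.8 CPM with IAA (1.57 ± 0.46, edgeR adjusted p = 0.0056), so the groups did not overlap. The value in RPB6 was 1.79 ± 0.74 (edgeR adjusted p = 0.033). The mt-Tt call was lost in RPB10 without IAA replicate 2 (1.28), and in RPB6 without untreated replicate 2 (1.22) or IAA replicate 2 (1.53). mt-Ti, the isoleucine tRNA gene, had 2 counts in both untreated RPB6 libraries together and 17 with IAA, and in RPB12 0 counts untreated and 17 with IAA, which is at least 5.18-fold higher against a floor of 3 counts over the group. The RPB6 call was lost without untreated replicate 2 and the RPB12 call without either untreated replicate or IAA replicate 2. Of the 6 tRNA genes called in RPB12, mt-Tl2 alone held with each library left out.

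Of the 3 tRNA genes between mt-Nd4 and mt-Nd5, whose sequences are printed above, all were called higher in RPB7, mt-Tl2 in RPB12, and mt-Th and mt-Ts2 in RPB8 and RPB10, whereas mt-Th and mt-Tl2 were called lower in RPB2. In RPB7 mt-Th had 0.419 and 1.05 CPM untreated and 3.97 and 4.05 CPM with IAA (2.48 ± 0.58, edgeR adjusted p = 0.00048), and mt-Tl2 1.40 and 2.27 CPM before and 8.33 and 6.65 CPM after (2.04 ± 0.52, edgeR adjusted p = 0.0014). In RPB12 mt-Tl2 had 3.54 and 2.06 CPM before and 11.3 and 23.6 CPM after (2.66 ± 0.43, edgeR adjusted p = 2.6e-05). These groups did not overlap, and these 3 calls held under every alternative and with each library left out. In RPB2, by contrast, mt-Th went from 5.41 and 9.29 to 1.29 and 4.02 CPM (-1.49 ± 0.43, edgeR adjusted p = 0.0023). With TMM scaling it was at -0.65 and not called, and the call was lost as well without untreated replicate 2 (-1.02) or IAA replicate 1 (-0.91). mt-Tl2 in RPB2, from 9.09 and 14.4 to 4.89 and 7.53 CPM (-0.95 ± 0.41, edgeR adjusted p = 0.041), flipped its sign with DESeq2's size factors (0.14) and was not called without untreated replicate 2 (-0.54) or IAA replicate 1 (-0.67). The mt-Ts2 call in RPB7 was lost with TMM scaling (1.57), without either untreated replicate (1.80 and 1.55) and without IAA replicate 2 (1.33). In RPB8 the mt-Th and mt-Ts2 calls were lost without IAA replicate 1 (1.05 and 1.04). In RPB10 the mt-Th call was lost without untreated replicate 1 (0.85) or IAA replicate 2 (0.91), and the mt-Ts2 call without any 1 of the 4 libraries (0.98 to 1.11). edgeR called 0 of 15 tRNA genes in WT, RPB3 and RPB4, with 4, 0 and 2 at an unadjusted p under 0.05 and 0 by DESeq2. The 4 in WT included mt-Th, from 1.92 and 4.29 to 6.62 and 6.18 CPM, and mt-Tc, from 0.768 and 1.56 to 4.19 and 2.52 CPM, so treated WT libraries lay above untreated ones for both.

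Set against these WT values, the response of some tRNA genes was lower than that of WT in several lines. mt-Tc, the cysteine tRNA gene, was called lower than WT in RPB2 (-1.63), RPB3 (-1.58), RPB5 (-1.90), RPB9 (-1.89) and RPB11 (-2.76), mt-Th in RPB2 (-2.54) and RPB5 (-1.55), and mt-Ts2 in RPB1 (-1.63), RPB5 (-1.92) and RPB11 (-2.15). Of all tested genes, 20.2% were called lower than WT in RPB1, 47.8% in RPB2, 10.4% in RPB3, 20.4% in RPB5, 8.04% in RPB9 and 4.95% in RPB11. All 5 mt-Tc calls were lost without WT untreated replicate 1 or WT IAA replicate 1: the values without the former were -1.21, -1.16, -1.48, -1.48 and -2.35. The mt-Ts2 calls were lost without WT untreated replicate 1 too (-1.10 in RPB1, -1.39 in RPB5 and -1.62 in RPB11), and that of mt-Th in RPB5 (-1.08), whereas the mt-Th call in RPB2 held with each library left out.

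mt-Te is the glutamate tRNA gene between mt-Nd6 and mt-Cytb on the minus strand. It varied most between untreated lines among members for which a ratio was computed. Without IAA it had 0.576 and 0.390 CPM in WT, from 3 and 2 counts, and 22.5 and 29.8 CPM in RPB4, a ratio of group means of 54.1. The untreated means of all 12 lines were above that of WT, as they also were for mt-Tl1, mt-Tw, mt-Ta and mt-Tc. mt-Tw, with means of 0.192 CPM in WT and 9.43 CPM in RPB2, had too few WT counts for a ratio. RPB2, with 16.8 and 12.0 CPM, and RPB8, with 7.80 and 9.63 CPM, were also high, and RPB7 was next to WT with 0.698 and 0.873 CPM. By comparison, the ratio of the highest to the lowest untreated group mean was 1.49 to 4.44 over the 12 tested mRNAs, 2.27 and 4.23 for the rRNAs, and 2.73 to 54.1 (median 8.75) over the 11 tRNA genes for which it was computed. With IAA, mt-Te rose in RPB7, from 0.698 and 0.873 to 5.36 and 6.48 CPM (2.90 ± 0.67, edgeR adjusted p = 0.00043), and in RPB8, to 33.8 and 26.8 CPM (1.80 ± 0.35, edgeR adjusted p = 1.5e-05). Both calls held with each library left out. Calls in RPB6 (1.10), RPB9 (1.25), RPB10 (1.43), RPB11 (1.88) and RPB12 (1.70) did not. The RPB10 and RPB12 calls were lost without any 1 of the 4 libraries (1.13 to 1.89 and 1.54 to 1.85). The RPB6 call was lost without either untreated replicate (1.02 and 1.20) or IAA replicate 1 (0.97), the RPB9 call without untreated replicate 2 (0.90) or IAA replicate 1 (1.16), and the RPB11 call without untreated replicate 2 (1.27) or either IAA replicate (1.78 and 1.97). In each of these 7 lines both treated libraries were above both untreated ones. In RPB4, the line highest without IAA, mt-Te was 29.3 and 23.3 CPM with it, within the untreated range, and in RPB3 it was 2.16 CPM in the library that stood apart and 19.5 CPM in the other, against 8.29 and 5.81 CPM untreated.

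To see which transcripts moved relative to the others, each gene was also fitted against the summed counts of the 13 mRNAs, a scale on which a uniform rise of all members would give no call. Each mRNA is part of its own denominator there, most of all mt-Co1. In RPB8, 1 of 29 members was called (mt-Atp6, 0.69 above the pool), where 71.4% of all tested genes were called against the pool. In RPB6 8 were called, with 78.1% of all genes: mt-Tl1 (1.64), mt-Tw (1.49), mt-Ta (1.23), mt-Co2 (0.71) and mt-Nd6 (0.56) above the pool, and mt-Ty (-1.81), mt-Th (-1.48) and mt-Tl2 (-0.94) below it. RPB2 had 14, again with 78.1% of all genes: mt-Co2 (0.93), mt-Atp6 (0.79), mt-Co3 (1.00) and mt-Nd4l (1.19) above, and mt-Rnr1 (-0.86) and 9 tRNA genes below, among them mt-Th (-2.79), mt-Tl2 (-2.26), mt-Tq (-1.66) and mt-Te (-1.50). The mRNAs above the pool in RPB2 all have a copy on chromosome 1. The number was 9 in RPB2 without untreated replicate 2 or IAA replicate 1. In RPB6 it was 5 without either untreated replicate and 4 without IAA replicate 1. In RPB8 it was 2, 4 and 5 without untreated replicate 1, untreated replicate 2 and IAA replicate 2. Of the mRNAs without a copy there, only mt-Nd6 in RPB6 was called against the pool in these 3 lines.

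Other lines had few members called against the pool. In RPB10 only mt-Rnr2 was called (1.14 ± 0.27, edgeR adjusted p = 0.00064), with 18.9% of all genes, and 2 members were without untreated replicate 1 or IAA replicate 2. RPB7 had 3, all tRNA genes: mt-Te (2.42), mt-Th (1.99) and mt-Tl2 (1.55), with 25.3% of all genes. RPB12 had 4, with 0.402% of all genes: mt-Tl2 (2.69), mt-Tq (2.03), mt-Te (1.74) and mt-Ti. Without either untreated replicate or IAA replicate 2 of RPB12, 1 was left. In RPB9 and RPB11 mt-Te was the 1 member called (1.02 and 1.92), with 11% and 2.87% of all genes, and none was without untreated replicate 2 or either IAA replicate of the line. RPB5 had mt-Th (-1.12) and mt-Ts2 (-1.48), with 47.3%, and 0 without untreated replicate 1 or IAA replicate 1 and 1 without untreated replicate 2 or IAA replicate 2. RPB1 had mt-Co2 (0.84) and mt-Ts2 (-1.35), with 58.5%, and 1 without untreated replicate 1 or IAA replicate 1 and 0 without untreated replicate 2. RPB3 had mt-Rnr2 (0.99), with 47.7%, and 13 without IAA replicate 2, when the library that stood apart was its sole treated one. edgeR called 0 members against the pool in WT, RPB4 and RPB1, RPB3 and RPB6 at 1 h, with 4, 0, 3, 4 and 1 at an unadjusted p under 0.05, except that 6 were called in RPB3 at 1 h without 1 h replicate 1.

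The nuclear genes that serve mitochondrial transcription went the other way in RPB2 and RPB6. Of 16 tested transcription genes, 16 fell and 0 rose in both lines, with median log2 fold changes of -2.73 and -2.44, where 51.7% and 48.1% of all tested genes were called lower. With TMM scaling 15 and 12 fell, with medians of -1.88 and -1.82. Polrmt, the mitochondrial RNA polymerase, had 66.7 and 53.4 CPM in untreated RPB2 and 17.0 and 17.6 CPM with IAA (-1.79 ± 0.14), and 66.6 and 74.9 CPM against 26.5 and 26.6 CPM in RPB6 (-1.41 ± 0.13). It fell also in RPB8 (-0.95 ± 0.13) and RPB1 (-0.85 ± 0.12), and in WT it was at 54.9 and 52.1 CPM before and 53.8 and 57.9 CPM after. Tfam, which bends and packages the promoter DNA, had 82.9 and 109 CPM in untreated RPB2 and 13.4 and 15.6 CPM with IAA (-2.73 ± 0.14). Tefm, the elongation factor of the same polymerase, had 22.6 and 33.2 CPM there and 1.29 and 0.251 CPM with IAA (-5.17 ± 0.33), and in RPB6 32.8 and 32.5 CPM and then 2.65 and 1.33 CPM (-4.02 ± 0.26). Treated libraries of RPB2 and RPB6 were below untreated ones for all these genes, in the same libraries in which the mitochondrial mRNAs were high. The proteins were not measured.

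RPB8 and RPB1 showed the rise of mitochondrial mRNAs with a mixed pattern of these genes. In RPB8 3 of the 16 transcription genes rose and 11 fell (TMM: 3 and 9), where 34.7% of all genes were called lower, and in RPB1 5 rose and 7 fell (TMM: 2 and 10), where 24.3% were. Tfb2m, the factor that helps the polymerase melt promoters, rose in RPB8 (1.01), RPB1 (1.21), RPB5 (0.93) and RPB3 (0.88) and fell in RPB2 (-2.51); in RPB6 it was -0.68, but -0.06 with TMM scaling and 0.06 with DESeq2's size factors. Tfb1m, an rRNA methyltransferase, fell in RPB8 (-2.23), RPB2 (-2.73), RPB6 (-2.29) and RPB5 (-1.55). In RPB5 2 of the transcription genes rose and 9 fell (TMM: 2 and 10), where 25.1% of all genes were called lower, and in RPB10 3 rose and 3 fell. Of 25 genes of RNA processing and decay, 19 fell and 3 rose in RPB2 (TMM: 14 and 9), 16 and 4 in RPB6 (TMM: 14 and 10), 12 and 7 in RPB8 (TMM: 9 and 8), 12 and 6 in RPB1 (TMM: 15 and 5), and 15 and 3 in RPB5. Mtpap, the mitochondrial poly(A) polymerase, fell in RPB2 (-3.79), RPB6 (-2.57), RPB8 (-1.96), RPB5 (-1.77) and RPB1 (-0.71). The genes named from this list and from DNA maintenance are the 4 of each called in the most degron lines, and so were picked by these same data. Of them Grsf1 rose in 5 lines and fell in 5. Fastkd2, which binds mt-Rnr2 and mt-Nd6 RNA, fell in 9 lines, most in RPB8 (-2.55). Fastkd3, another RNA-binding member of that family, rose in 7 lines, most in RPB8 (1.70), and fell in RPB2 (-3.41) and RPB6 (-1.91). Of 17 genes of mitochondrial DNA maintenance, 13 fell and 3 rose in RPB2 (TMM: 7 and 7), 10 and 3 in RPB6 (TMM: 7 and 8), 12 and 5 in RPB8 (TMM: 12 and 5), 6 and 5 in RPB1 (TMM: 8 and 4), and 7 and 7 in RPB5. Twnk, the replicative helicase, rose in RPB1 (0.75) and fell in RPB2 (-2.76). Ssbp1, the single-strand DNA-binding protein, fell in RPB5 (-1.79) and RPB8 (-1.65) and in RPB2 was -0.58, but 0.27 with TMM scaling. Mpv17 rose in 9 lines and fell in 0, and Tk2 rose in 7 and fell in 2.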

How the data were processed

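RNA-seq libraries of 64 samples of V6.5 mouse embryonic stem cells were analysed, grouped by line, treatment and time as the labels give them. The authors deposited raw read counts per gene, with no normalization; per the submitters' processing notes the tools included cutadapt 1.18, STAR, featureCounts and DESeq2, with builds mm10 and dm6. The sources used here do not name the strand setting, the handling of reads that fit several places or the annotation behind the counts. 4 columns of per-sample values in the table matched no sample in the labels and were not used. Of 55335 gene identifiers, 55154 were named by GENCODE M21. The labels' protocols state poly(A) libraries for the 12 h samples and name no type for the others.

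CPM were computed from the deposited counts as shares of all counts of a library. Depth was 3399838 to 7164928 counts per 12 h library and 8598431 to 13281252 per 1 h library. Each set was fitted on its whole table with edgeR 4.0.16 (R 4.3.3): filterByExpr, library size equal to the total count, quasi-likelihood F-test, two-sided, Benjamini-Hochberg adjustment over all genes tested, threshold 0.05. The 13 IAA effects at 12 h, 12 differences from WT and 3 effects at 1 h were tested; standard errors are the log2 fold change divided by the root of F. A further fit took the summed counts of the 13 mitochondrial mRNAs as library size. Nuclear copies were sought with BLAST+ 2.17.0 in the GENCODE M21 transcripts (99% identity, at least 40 bases); sequence between annotated genes was not examined. Sequences come from the same transcripts.

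All 37 members are accounted for, and those with counts are named; the nuclear genes named come from 3 lists. The members and lists were chosen with earlier results of these data known, so no list is independent evidence. Alternatives within edgeR were TMM scaling, DESeq2's size factors (edgeR's RLE scaling), no filter on low counts and the replicate number as a block. A further one was the Wald test of DESeq2 1.42.0 with size factors set to total counts, called DESeq2 in the text. Each library was also left out in turn. These fits keep the dispersion trend of the full fit, and a lone sample is assumed to vary like the other groups. A pool fit on the mitochondrial rows alone was chosen after seeing the data. The fits were tested on simulated data with known changes and the same spread for every gene. For RPB1 at 12 h they recovered 53% of 1.5-fold and 87% of 2-fold changes, and at 1 h 67% and 93%. The simulated spread was not matched to the mitochondrial genes, so these rates may not hold for them. Tables and plots were made with Python 3.11.15.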

Additional observations from a re-analysis of the deposited data

Results flagged for a closer look

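The IAA response of some mitochondrial transcripts differed from that of WT by a test of the difference itself, edgeR's quasi-likelihood test with adjustment over all genes. The number of members for which it did was 15 in RPB6, 14 in RPB2, 14 in RPB8, 6 in RPB1, 3 in RPB5, 2 in RPB10, 2 in RPB11, 1 in RPB3 and 1 in RPB9. In RPB6 they were 10 mRNAs, both rRNAs, mt-Tl1, mt-Ts1 and mt-Tp, all higher than in WT. In RPB8 they were 10 mRNAs, both rRNAs, mt-Ts1 and mt-Tp, also all higher. In RPB2 they were 9 mRNAs, mt-Rnr2, mt-Ts1 and mt-Tp, higher than in WT, and mt-Tc and mt-Th, lower. The single members in RPB3 and RPB9 were mt-Tc, lower than in WT, and in RPB5 and RPB11 only tRNA genes differed, all lower. Of all tested genes, 12.2% in RPB6, 11.1% in RPB2, 19.6% in RPB8, 28.9% in RPB1 and 13% in RPB10 were called higher than in WT. Called lower were 47.8% in RPB2, 20.2% in RPB1, 10.4% in RPB3, 20.4% in RPB5, 8.04% in RPB9 and 4.95% in RPB11. The counts in RPB1, RPB3, RPB5, RPB9, RPB10 and RPB11, of 29 tested members each, are near or below these shares. These comparisons share the WT libraries.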

How the results depend on the processing

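Of 182 called values of members, 163 kept direction and call with TMM scaling, 174 with DESeq2's size factors and 147 with DESeq2's test on total-count scaling. Without the filter on low counts 179 did, and with the replicate block 178. Of 116 called values of named nuclear genes, 101, 102, 108, 106 and 111 did, in the same order. These tallies do not cover the fits with 1 library left out. In at least 1 of those, many called values of members and of named nuclear genes kept their direction but lost their call. With TMM scaling, mRNAs called higher were 3 in RPB5 and 1 in RPB7, 1 was called lower in RPB3, and the log2 ratio of the summed share was 0.57 in RPB1, 2.21 in RPB2, 1.96 in RPB6 and 0.26 in RPB10. DESeq2's size factors gave 1 in RPB7. DESeq2 gave 3 higher in RPB5, 1 in RPB7, 1 in RPB10, and 1 lower in RPB6 at 1 h. Without the filter, 1 mRNA was called higher in WT, 8 in RPB7, 6 in RPB9 and 7 in RPB10, and 5 lower in RPB3 and 3 in RPB6 at 1 h. Against WT it gave 9 higher in RPB1, 7 in RPB5, 6 in RPB7, 1 in RPB9 and 6 in RPB10, and 4 lower in RPB3 and 1 in RPB4. The pool fit on mitochondrial rows alone called 1 member in RPB1, 3 in RPB3, 0 in RPB5, 1 in RPB7, 0 in RPB9, 2 in RPB10 and 11 in RPB12. Signs flipped with TMM scaling for mt-Tc in RPB2 (0.74), Tk2 in RPB6 (0.35) and Ssbp1 in RPB2 (0.27). With DESeq2's size factors they flipped for mt-Tc (0.98), mt-Tl2 (0.14), mt-Te (0.98) and Ssbp1 (0.51) in RPB2, and Tk2 (0.46) and Tfb2m (0.055) in RPB6. The cause of these changes was not tested.

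Samples with the same replicate number did not deviate together: the correlation of their deviations was -0.145 to 0.0551 over 16 pairs, with 0 over 0.1. With 2 libraries a group, this cannot show whether they share a culture or a batch, which the labels do not say. With the replicate block, 4 mRNAs were called lower in RPB3 and 1 in RPB6 at 1 h; against WT, 3 were called lower in RPB3, 2 higher in RPB5 and 1 higher in RPB10; against the pool, 2 members were called in RPB3 and 1 in RPB1 at 1 h.

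Leaving out 1 library gave 5 to 8 mRNAs called higher in RPB1, 0 to 5 in RPB3 (and 0 to 8 lower), 1 to 8 in RPB5, 1 to 2 in RPB7 and 0 to 2 in RPB10 (and 0 to 1 lower). Against WT it gave 1 to 4 higher in RPB1, 0 to 1 in RPB3 (and 0 to 8 lower) and 0 to 3 in RPB5. At 1 h it gave 0 to 2 lower in RPB1 and 0 to 3 higher in RPB3. Against the pool it gave 0 to 2 members in RPB1, 9 to 14 in RPB2, 1 to 13 in RPB3, 0 to 1 in RPB5, 4 to 6 in RPB6, 1 to 5 in RPB8, 0 to 1 in RPB9, 1 to 2 in RPB10, 0 to 1 in RPB11, 1 to 3 in RPB12 and 0 to 6 in RPB3 at 1 h. Signs in RPB3 changed between leaving out IAA replicate 1 and IAA replicate 2: mt-Nd1 was 0.30 and -1.35, mt-Co1 0.44 and -0.67, mt-Nd4 0.40 and -2.26, mt-Nd5 0.60 and -1.46, mt-Te 1.47 and -1.69, and mt-Cytb 0.39 and -1.60 (0.41 and -1.58 against WT). Low counts left 7 of 22 tRNA genes untested at 12 h and 15 at 1 h, although the 1 h libraries were deeper; the reason was not tested.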
